A study of Mus musculus with 12 samples.

Results

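Arntl, Clock, Bhlhe40 and Bhlhe41, genes of the activating arm of the circadian clock and of its basic helix-loop-helix modulators, were followed in 12 poly(A) RNA sequencing libraries of mouse gastrocnemius, a muscle of the calf. The genes were taken by symbol, and all 4 were found among the 10475 genes of the deposited table of TPM, a relative abundance of transcripts corrected for length and depth. All 4 passed the filter of at least 1 TPM in at least 3 libraries, which left 10415 genes to test. Wild-type mice (WT) and transgenic mice (TG) that overexpress E4BP4, a transcriptional repressor encoded by Nfil3, in the liver were compared at Zeitgeber time (ZT) 0 and ZT12. Each of the 4 groups, WT ZT0, TG ZT0, WT ZT12 and TG ZT12, had 3 libraries. All mice were 8 weeks old, of C57BL/6 background, on a normal diet, and in 12 hours of light and 12 hours of dark, with ZT0 at lights on. The promoter that drives the transgene, the number of lines, the sex of the mice and whether each library came from its own mouse are not given in the sources used here, so p-values measure the spread between these libraries, which may be technical.

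BMAL1, the product of Arntl, pairs with CLOCK, and the pair binds E-box sequences in DNA and switches on transcription of the Per and Cry genes, of Nr1d1 and Nr1d2, and of Bhlhe40 and Bhlhe41. PER and CRY proteins then return to the nucleus and block the pair, and REV-ERB proteins, the products of Nr1d1 and Nr1d2, repress Arntl through ROR response elements. BHLHE40 and BHLHE41, also called DEC1 and DEC2, bind E-boxes and are known mainly as repressors of CLOCK and BMAL1 activity, so that the activator role in the usual sense belongs to Arntl and Clock. In skeletal muscle this loop is known to time genes of glucose use and of myogenic identity.

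Short reference sequences at the start sites hold letters that match elements described for the loop. Windows of 250 bases before to 50 bases after a RefSeq start site (build GRCm38.p6, the same assembly as mm10) were searched on both strands for the E-box CACGTG, for TAGGTCA, a ROR element with 1 flanking base, and for its core AGGTCA. The table of windows held 2 for Arntl, 3 for Clock and 1 for Bhlhe41, and none for Bhlhe40. One 30-base site each is given below 5′ to 3′ on the gene's strand, with the motif in capitals.
Arntl, chr7:113207529-113207558, plus strand: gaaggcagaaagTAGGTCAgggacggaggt
Clock, chr5:76303604-76303633, minus strand: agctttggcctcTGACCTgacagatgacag
Bhlhe41, chr6:145865556-145865585, minus strand: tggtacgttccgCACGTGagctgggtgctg

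The Arntl site lies in an exon of the gene in GENCODE M21 and in 1 of the 2 Arntl windows. Its position is 31, counted as 1 from the start site of that window, chr7:113207511. The Clock site reads AGGTCA on the opposite strand, lies at position -119 from a start site, and is in no exon of the gene. The Bhlhe41 E-box lies at position -153 from the start site, also in no exon of the gene. Of all 32851 windows in the table, 2.61% held TAGGTCA, 16.3% held AGGTCA, whose letters are part of TAGGTCA, and 7.15% held CACGTG. A match describes letters only, and binding was not measured here.

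In the files' mm10 coordinates, Arntl spans chr7:113207465-113314126 on the plus strand with a transcript of 2596 bases. Clock spans chr5:76209868-76303502 on the minus strand with 9579 bases. Bhlhe40 spans chr6:108660629-108666925 on the plus strand with 3106 bases, and Bhlhe41 spans chr6:145858243-145865420 on the minus strand with 5988 bases. The counting is not stated to have used strand. Exons of an antisense gene share 33 bases with Arntl (Gm45355), 118 with Bhlhe40 (0610040F04Rik) and 1280 with Bhlhe41 (Gm43909). If strand was not used, reads of those stretches cannot be told apart from reads of the partner. No antisense exon was found over Clock.

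Whole reads were recovered from the TPM values, and their sums over the listed genes were 9209445 to 13148791 in the ZT0 libraries and 13125523 to 20155324 in the ZT12 libraries. Depth therefore went with time. At ZT12 it also separated the genotypes, with 17715013 to 20155324 reads in WT and 13125523 to 15775285 in TG. Median TPM over the listed genes was highest in WT ZT0 replicate 2 (9.26) and lowest in TG ZT12 replicate 1 (4.96), and results that rest on these 2 libraries are given below without them or with the libraries rescaled. All 11 skeletal muscle markers were listed, none of 9 lymphocyte markers and 1 of 6 hepatocyte markers. Every listed gene has 1 TPM or more in WT ZT0 replicate 1, so absence from the list does not describe the other libraries. Shares and medians of all genes given below cover listed genes only. Genes under 1 TPM in WT ZT0 replicate 1, including any that were higher at ZT12, are outside them. The summed TPM of red cell markers (5 of 6 listed) was 86.2 to 163 in the ZT0 libraries and 145 to 4565 in the ZT12 libraries. It was low in WT ZT12 replicate 3 (176) and TG ZT12 replicate 3 (145). In bulk tissue, fewer cells of a type and less RNA per cell cannot be told apart.

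The order of levels was the same in 12 of 12 libraries. Bhlhe40 was the most abundant, followed by Bhlhe41, Arntl and Clock. In mean TPM, which is per length, Bhlhe40 stood at percentile 85.3 of the genes tested, Bhlhe41 at 75.9, Arntl at 48.8 and Clock at 31.7. Recovered reads per library were 131 to 516 for Arntl, 273 to 1224 for Clock, 764 to 3476 for Bhlhe40 and 951 to 2874 for Bhlhe41. Counting error is widest for Arntl, where the exact 95% Poisson interval around a library's value spans up to 17.5% of that value on either side. These intervals cover counting error only.

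**Figure D1:**
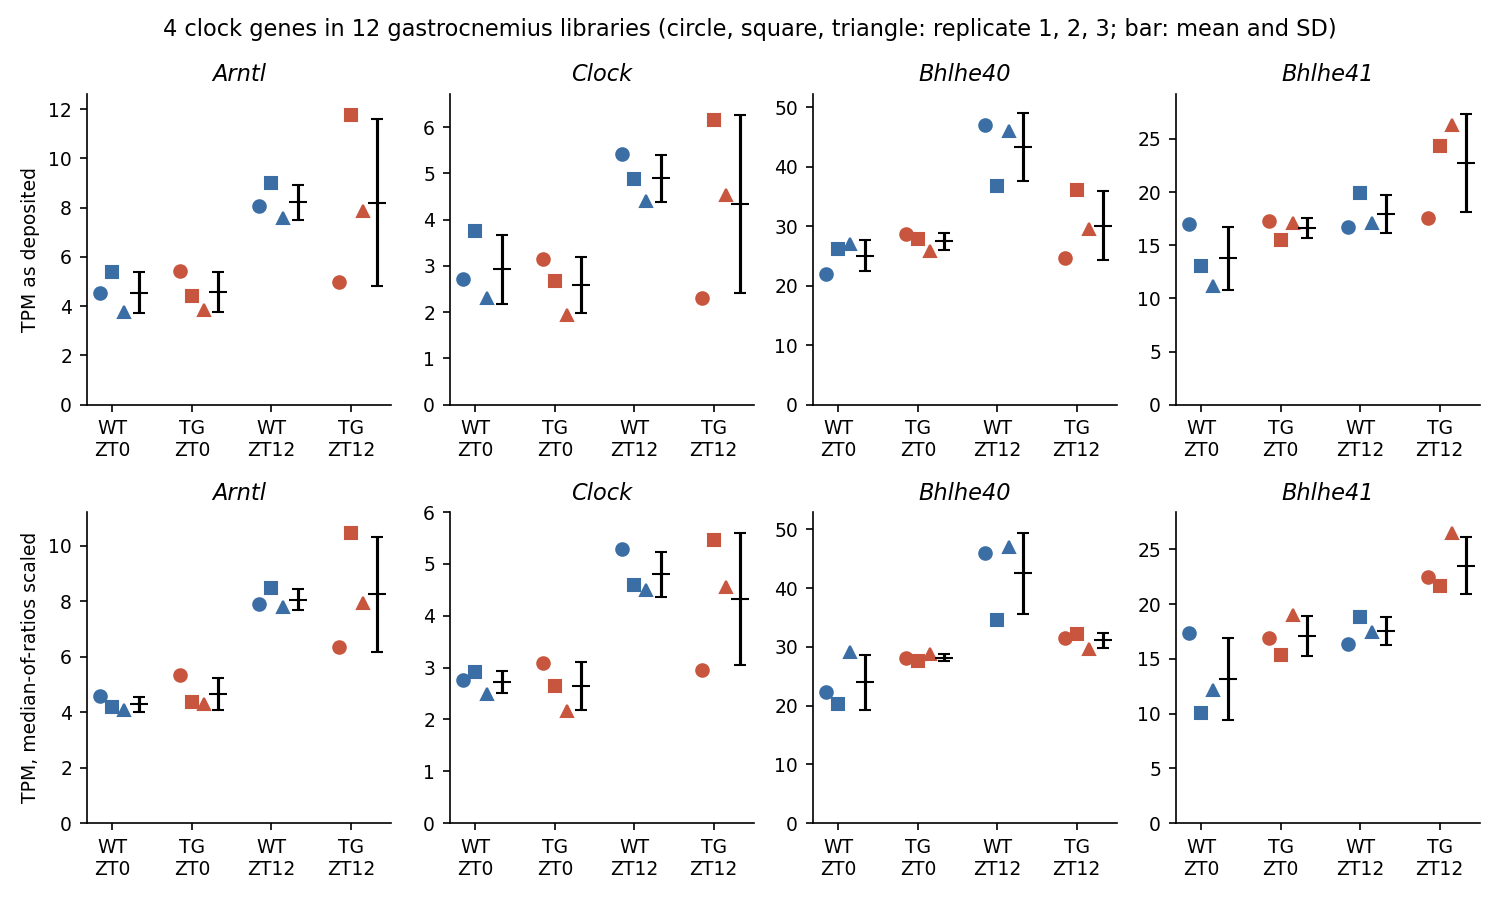
Level of each gene in each library (y axis, TPM) by group (x axis), as deposited in the upper panels and after median-of-ratios scaling in the lower panels. Points are libraries, with WT in blue and TG in red, and bars are the mean and SD of 3. For Arntl and Clock, TG ZT12 replicate 1 (circle) sits at the level of the ZT0 libraries as deposited.

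Arntl, which encodes the partner shared by the clock's activating complexes, measured 4.52, 5.39 and 3.75 TPM in WT ZT0 and 8.06, 8.98 and 7.60 TPM in WT ZT12. In TG it measured 5.44, 4.42 and 3.84 TPM at ZT0 and 4.98, 11.7 and 7.88 TPM at ZT12. The WT times did not overlap, whereas in TG 1 ZT12 library lay inside the ZT0 range. Group means were 4.55 ± 0.820 (WT ZT0), 4.56 ± 0.810 (TG ZT0), 8.21 ± 0.705 (WT ZT12) and 8.20 ± 3.40 TPM (TG ZT12; SD, n = 3 each). The 2 genotypes thus had nearly equal means at each time, with a wider spread in TG ZT12.

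Clock, which encodes BMAL1's partner, measured 2.72, 3.76 and 2.30 TPM in WT ZT0 and 5.42, 4.87 and 4.40 TPM in WT ZT12. In TG it measured 3.16, 2.68 and 1.94 TPM at ZT0 and 2.31, 6.14 and 4.53 TPM at ZT12. Its WT times did not overlap either, and the same TG ZT12 library lay low. Group means were 2.92 ± 0.752 (WT ZT0), 2.59 ± 0.610 (TG ZT0), 4.90 ± 0.507 (WT ZT12) and 4.33 ± 1.92 TPM (TG ZT12; SD, n = 3 each).

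Bhlhe40, the DEC1 repressor, measured 22.0, 26.2 and 26.9 TPM in WT ZT0 and 47.0, 36.7 and 46.0 TPM in WT ZT12. In TG it measured 28.6, 27.9 and 25.8 TPM at ZT0 and 24.7, 36.1 and 29.5 TPM at ZT12. All 3 WT ZT12 libraries lay above the other 9, the nearest being TG ZT12 replicate 2. Group means were 25.0 ± 2.65 (WT ZT0), 27.4 ± 1.45 (TG ZT0), 43.2 ± 5.69 (WT ZT12) and 30.1 ± 5.74 TPM (TG ZT12; SD, n = 3 each).

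Bhlhe41, the DEC2 repressor, measured 17.0, 13.0 and 11.2 TPM in WT ZT0 and 16.7, 19.9 and 17.1 TPM in WT ZT12. In TG it measured 17.3, 15.5 and 17.0 TPM at ZT0 and 17.6, 24.3 and 26.3 TPM at ZT12. The 2 highest values were TG ZT12 libraries and the 2 lowest were WT ZT0 libraries, with the other 8 between 15.5 and 19.9 TPM. Group means were 13.8 ± 2.98 (WT ZT0), 16.6 ± 0.953 (TG ZT0), 17.9 ± 1.77 (WT ZT12) and 22.7 ± 4.58 TPM (TG ZT12; SD, n = 3 each).

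The comparison of ZT12 with ZT0 sets the libraries of lights off beside those of lights on, within each genotype. As background, Arntl RNA in mouse tissues is known to be high around lights on and low around lights off, and Per2 RNA the reverse. In these libraries Per2, a repressor of the loop, was lower at ZT12: its mean was 2.77 TPM in WT ZT0 and 0.336 TPM in WT ZT12, and 2.37 and 0.396 TPM in TG. Arntl means ran the other way. Times are used here as the labels give them, and the reason for an order opposite to that background was not tested.

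By limma on log2(TPM + 1), with Benjamini-Hochberg adjustment over all genes tested, 0 of the 4 genes passed an adjusted p of 0.05 between the times, where 0.115% of genes passed in WT, 0.154% in TG and 1.02% over both genotypes. Without overlap between groups, 3 of 4 genes (Arntl, Clock and Bhlhe40) were higher at ZT12 in WT, against 5.62% of all genes, and 1 of 4 (Bhlhe41) in TG, against 3.21%. Between all 6 ZT0 and all 6 ZT12 libraries, 0 of 4 were free of overlap, against 0.538% of all genes. After median-of-ratios scaling, the genes free of overlap and higher at ZT12 were the same 3 of 4 in WT (7.55% of all genes), 3 of 4 in TG (Arntl, Bhlhe40 and Bhlhe41; 5.28%) and 2 of 4 between all 6 and 6 libraries (Arntl and Bhlhe40; 1.22%). Rescaled Bhlhe40 in TG was 27.6 to 28.8 TPM at ZT0 and 29.6 to 32.2 TPM at ZT12, a narrow gap. At an unadjusted p under 0.05, limma passed 3 of 4 in WT (4.65% of all genes), 2 of 4 in TG (3.53%) and 4 of 4 over both genotypes (7.35%). Over both genotypes, all 4 estimates were above 0 while the median of all genes was -0.03.

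Arntl had the largest of the 4 estimates over both genotypes, 0.70 on the log2(TPM + 1) scale (95% interval 0.36 to 1.05, limma adjusted p = 0.0666). This value sits close to the threshold: with a replicate block the estimate was the same and the limma adjusted p was 0.0447, and after median-of-ratios scaling it was 0.73 with an adjusted p of 0.00152. Without TG ZT12 replicate 1 it was 0.83 (limma adjusted p = 0.00632), and without WT ZT0 replicate 2 it was 0.75 (limma adjusted p = 0.0479). Over 24 alternatives for Arntl the limma adjusted p ran from 0.0014 to 0.599, and 9 passed. Within WT the Arntl estimate was 0.74 (0.22 to 1.26, limma adjusted p = 0.556), and within TG 0.67 (0.15 to 1.19, limma adjusted p = 0.945). The TG estimate of Arntl was 0.40 without TG ZT12 replicate 2 and ran up to 0.95, without TG ZT12 replicate 1. After median-of-ratios scaling, Arntl was 4.06 to 5.33 TPM in the 6 ZT0 libraries and 6.35 to 10.5 TPM in the 6 ZT12 libraries, so that the times no longer overlapped in either genotype.

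Clock gave an estimate of 0.56 over both genotypes (0.18 to 0.93, limma adjusted p = 0.235), 0.60 in WT (0.04 to 1.16) and 0.51 in TG (-0.05 to 1.08). The TG estimate of Clock was 0.82 without TG ZT12 replicate 1 and 0.27 without TG ZT12 replicate 2. The call over both genotypes depended on scaling and on a single library: the limma adjusted p was 0.0164 after median-of-ratios scaling, and 0.0240 without TG ZT12 replicate 1, where the estimate was 0.70. For Clock it ran from 0.00258 to 0.922 over 23 alternatives, of which 7 passed. Bhlhe40 gave 0.76 in WT (0.44 to 1.08, rank 30 of all genes by p, limma adjusted p = 0.0872) and 0.11 in TG (-0.21 to 0.44). The WT value for Bhlhe40 was 0.81 with a limma adjusted p of 0.0338 after median-of-ratios scaling. It stayed at 0.76, with a limma adjusted p of 0.0350 without TG ZT12 replicate 1 and 0.0485 without TG ZT12 replicate 2, which enter that estimate through the shared spread. Over 25 alternatives it ran from 0.0211 to 0.777, and 8 passed. Over both genotypes Bhlhe40 gave 0.44 (0.15 to 0.73, limma adjusted p = 0.221), which was 0.53 with an adjusted p of 0.0448 without TG ZT12 replicate 1, 1 of 2 passes among 24 alternatives with a limma adjusted p of 0.0337 to 0.556. Bhlhe41 gave 0.37 in WT (limma adjusted p = 1.00), 0.41 in TG (0.04 to 0.79) and 0.39 over both genotypes (0.14 to 0.64, limma adjusted p = 0.198). Without WT ZT0 replicate 3 the WT estimate of Bhlhe41 was 0.25.

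Each gene was also tested alone with a two-sided exact permutation test of time within genotype, whose smallest possible p over 400 arrangements is 0.005. The raw p was 0.01 for Arntl, 0.025 for Clock, 0.03 for Bhlhe40 and 0.015 for Bhlhe41, from 8 such tests of the 4 genes by time and by genotype. On rescaled values the exact permutation p was 0.005, 0.01, 0.005 and 0.01 in the same order. Depth and time cannot be told apart for these genes. With log2 depth as a covariate, the time estimates over both genotypes were 0.36 for Arntl, 0.07 for Clock, -0.25 for Bhlhe40 and 0.50 for Bhlhe41. Within WT they were 0.19, -0.18, 0.13 and 0.52, and within TG 0.35, 0.07, -0.24 and 0.50, in the same order. The estimate of Bhlhe41 alone of the 4 thus kept or exceeded its size in all 3 comparisons, and 0 of these 12 estimates passed. In WT their standard errors were 0.53, 0.55, 0.29 and 0.41 in the same order, against 0.24, 0.26, 0.15 and 0.17 without the covariate. With errors of that size, the 4 genes cannot be told apart in how far they depend on depth. The red cell markers moved with time in 4 of the 6 ZT12 libraries, and their part in these values was not tested.

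**Figure D2:**
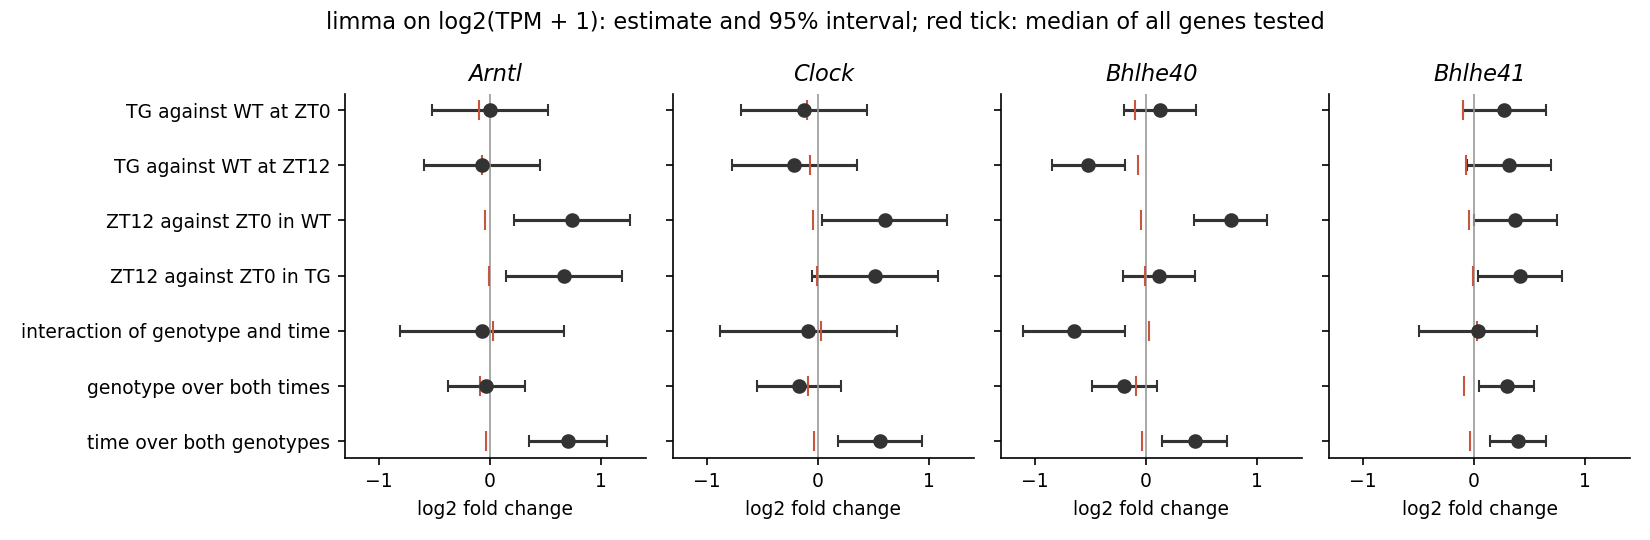
Estimates from limma (x axis, log2 fold change of TPM + 1) for the 7 comparisons (y axis). Points are estimates, bars 95% intervals and red ticks the median of all genes tested. The interval of Bhlhe40 lies above 0 for time in WT and below 0 for TG against WT at ZT12.

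The comparison of TG with WT sets muscle of mice with the liver transgene beside muscle of controls at the same labelled time. Nfil3 in muscle does not check a transgene that is placed in the liver. By limma 0 of the 4 genes passed at ZT0, at ZT12 or over both times, where 0% of all genes passed in each. At an unadjusted p under 0.05, 117 genes (1.12%) passed at ZT0, 99 (0.951%) at ZT12 and 166 (1.59%) over both times. Of the 4 genes, 0 passed that looser threshold at ZT0, Bhlhe40 passed it at ZT12 and Bhlhe41 over both times.

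Bhlhe40 at ZT12 gave -0.52 in TG against WT (95% interval -0.84 to -0.19, SE 0.15, limma adjusted p = 1.00), rank 5 of all genes by the unadjusted value. It was lower in TG without overlap, 24.7 to 36.1 against 36.7 to 47.0 TPM, which held for 1 of the 4 genes and for 4.26% of all genes in that direction. The gap between the nearest libraries was small, 36.1 in TG and 36.7 in WT. After median-of-ratios scaling the ranges were 29.6 to 32.2 and 34.6 to 47.1 TPM and the estimate was -0.43. With log2 depth as a covariate it was -0.21, and by limma on the deposited log2 table -0.10. The values of that table are drawn towards each gene's mean, so the size of -0.10 cannot be set beside the estimates from TPM. Depth and genotype cannot be told apart at ZT12. At ZT0 Bhlhe40 gave 0.13 (-0.19 to 0.45). The difference between the time effects of the genotypes, the interaction, was -0.65 for Bhlhe40 (-1.11 to -0.19, limma adjusted p = 1.00), rank 11 of all genes by the unadjusted value. With log2 depth as a covariate it was -0.38. No gene passed the adjusted threshold for the interaction, and 69 genes, or 0.663%, had an unadjusted p under 0.05 by limma. The interaction was -0.07 for Arntl, -0.09 for Clock and 0.04 for Bhlhe41, each with an interval that spans 0.

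For the interaction, all tested markers of 3 other cell types lay in the same direction as Bhlhe40, as did the 1 tested hepatocyte marker. Those of the other lists did not all do so. Above 0 for the interaction were 7 of 7 adipocyte markers (median 0.43) and 5 of 5 tested red cell markers (median 0.14). Endothelial markers were split, 3 above and 3 below 0, and macrophage markers lay 4 above and 2 below. For the interaction, all 7 of 7 fibro-adipogenic markers lay below 0 (median -0.43), as did 6 of 6 tested Schwann cell markers (median -0.60) and 5 of 5 smooth muscle markers (median -0.19), against 0.03 over all genes. In TG against WT at ZT12, the markers of these 3 lists all lay below 0, with medians of -0.26, -0.53 and -0.39, against -0.07 over all genes. There all 6 endothelial markers (median -0.16) and all 6 macrophage markers (median -0.28) lay below 0 too. Adipocyte markers lay 3 above and 4 below 0, skeletal muscle markers 7 above and 4 below, and all 5 tested red cell markers above (median 0.31). No marker of these lists passed in either comparison. Between the times in WT, 7 of 7 fibro-adipogenic markers lay above 0, with a median of 0.39. Of 6 tested Schwann cell markers, 5 lay below 0 there (median -0.13), and of 5 smooth muscle markers 3 lay above 0 (median 0.04). Endothelial markers lay 5 above and 1 below 0 in that comparison (median 0.10), and macrophage markers 2 above and 4 below. Adipocyte markers lay 1 above and 6 below, and all 5 tested red cell markers above. The summed TPM of fibro-adipogenic markers was 1077 to 1142 in WT ZT12, 800 to 1134 in TG ZT12, 806 to 924 in WT ZT0 and 849 to 1132 in TG ZT0. That of Schwann cell markers (6 of 7 listed) was 73.9 to 130 in WT ZT12, 28.3 to 129 in TG ZT12, 101 to 127 in WT ZT0 and 89.6 to 151 in TG ZT0. That of smooth muscle markers was 92.8 to 119 in WT ZT12, 64.3 to 111 in TG ZT12, 83.1 to 116 in WT ZT0 and 95.7 to 110 in TG ZT0. No marker of the 3 lists that was listed stood at 0 in all libraries. The part of these cell types in the Bhlhe40 values was not tested.

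Bhlhe41 gave 0.29 in TG against WT over both times (0.04 to 0.54, limma adjusted p = 0.929), with 0.27 at ZT0 and 0.31 at ZT12. Leaving out 1 library moved the ZT0 value to 0.43 (without WT ZT0 replicate 1) and 0.15 (without WT ZT0 replicate 3), and the ZT12 value to 0.48 (without TG ZT12 replicate 1) and 0.20 (without TG ZT12 replicate 3). Over both times it ran from 0.24 to 0.37. The exact permutation p for Bhlhe41, two-sided and unadjusted, was 0.04, and 0.015 on rescaled values, where the estimate was 0.39. After scaling, Bhlhe41 at ZT12 was 21.6 to 26.5 TPM in TG and 16.3 to 18.8 TPM in WT, with no overlap, which held for 1 of the 4 genes and 2.73% of all genes in that direction. Bhlhe40 was then the 1 of 4 that was lower without overlap, against 3.01%. On TPM as deposited, most genes lay the other way from Bhlhe41, with a median of all genes over both times of -0.09. That median depends on how the libraries are scaled, and its value after rescaling is not given here.

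Arntl and Clock gave intervals around 0 between the genotypes. For Arntl the estimate was 0.00 at ZT0 (-0.52 to 0.52), -0.07 at ZT12 (-0.59 to 0.45) and -0.03 over both times. For Clock it was -0.12 at ZT0, -0.21 at ZT12 and -0.17 over both times (-0.55 to 0.21). The sign of the Arntl estimate at ZT12 and over both times turned under median-of-ratios scaling, to 0.01 and 0.05. These intervals leave room for differences in either direction, so equal levels are not shown. In the authors' deposited table, TG against WT at ZT12 was 0.00 for Arntl, -0.01 for Clock, -0.14 for Bhlhe40 and 0.08 for Bhlhe41 on a log2 scale, with an adjusted p of 1.00 for each. At ZT0 the authors' deposited table gave 0.00, 0.00, 0.06 and 0.06 in the same order. The per-library values in those tables are drawn towards each gene's mean, and the fold changes of Bhlhe40 and Bhlhe41 there are smaller than those from TPM.

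Ratios within a library do not depend on how the library is scaled. These ratios were chosen after the values had been seen, and the adjustment below does not cover that choice. Their p-values are therefore descriptions only. The ratio of Bhlhe40 to Bhlhe41 at ZT12 was 2.82, 1.84 and 2.69 in WT and 1.41, 1.49 and 1.12 in TG. At ZT0 it was 1.29, 2.01 and 2.40 in WT and 1.66, 1.79 and 1.51 in TG. All 3 WT ZT12 libraries were above all 3 TG ZT12 libraries, a log2 difference of -0.86 in TG (exact permutation p = 0.1, the smallest that 3 against 3 allows). Over both times the genotype difference in this ratio was -0.51 (two-sided exact permutation p = 0.045, 0.09 after Benjamini-Hochberg adjustment over 4 ratio tests). For time it was 0.04 (exact permutation p = 0.89, adjusted 0.89).

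The ratio of Arntl to Clock was narrower, with group means of 1.58 ± 0.124 (WT ZT0), 1.78 ± 0.170 (TG ZT0), 1.69 ± 0.180 (WT ZT12) and 1.93 ± 0.207 (TG ZT12; SD, n = 3 each). Its genotype difference was 0.19 on the log2 scale (two-sided exact permutation p = 0.04, adjusted 0.09), and its time difference 0.11 (exact permutation p = 0.195, adjusted 0.26). Neither ratio passed the adjusted threshold.

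**Figure D3:**
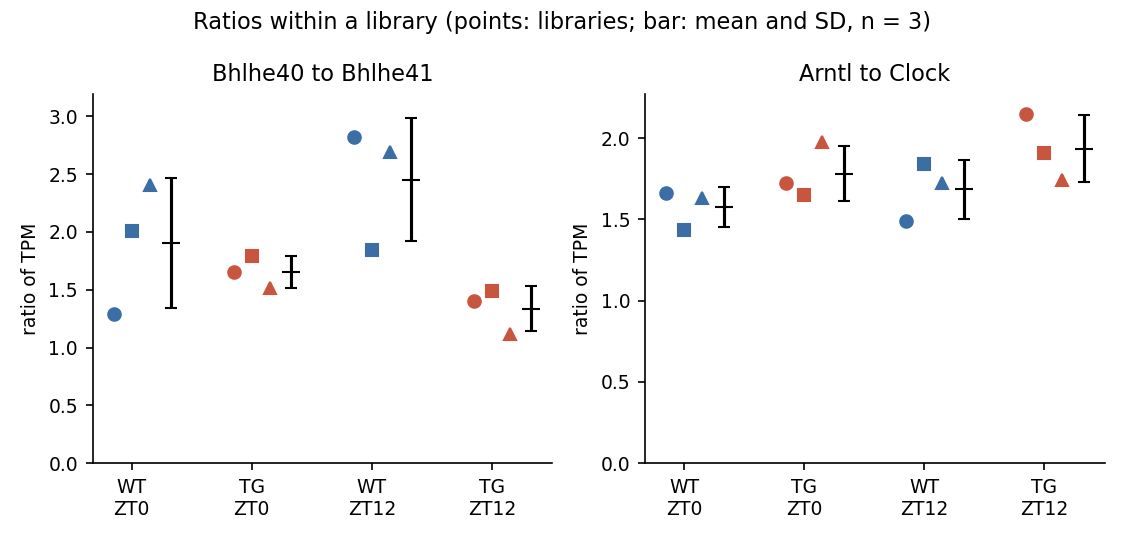
Ratio of TPM values within a library (y axis) by group (x axis), for Bhlhe40 to Bhlhe41 and for Arntl to Clock. Points are libraries and bars the mean and SD of 3. The ratio of Bhlhe40 to Bhlhe41 separates the genotypes at ZT12, with group means of 2.45 and 1.34.

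Arntl and Clock varied together from library to library. Across the 12 libraries, Pearson's r of their log2(TPM + 1) values was 0.96, and it was 0.96 for the deviations from the group means. After median-of-ratios scaling these were 0.94 and 0.87. The library TG ZT12 replicate 1 was low in both genes and TG ZT12 replicate 2 high in both, also after scaling. Bhlhe40 and Bhlhe41 had an r of 0.26 across libraries and -0.07 within groups. Between Arntl and Bhlhe40, r within groups was 0.58 as deposited and -0.14 after scaling, and between Arntl and Bhlhe41 it was 0.59 and 0.09. These correlations are descriptions over libraries that share groups, depth and scaling.

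**Figure D4:**
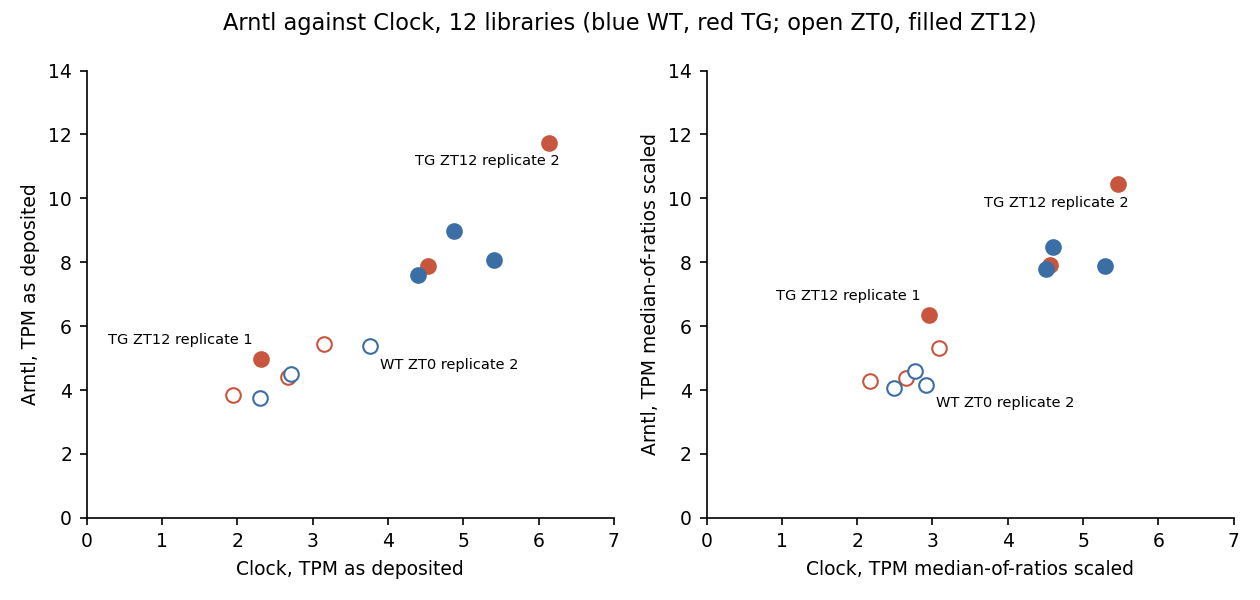
Arntl (y axis, TPM) against Clock (x axis, TPM) in the 12 libraries, as deposited on the left and after median-of-ratios scaling on the right. Blue is WT and red TG, open points are ZT0 and filled points ZT12. The point of TG ZT12 replicate 1 lies among the ZT0 libraries on the left.

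Genes whose log2 levels were most like each of the 4 were ranked by Pearson's r over the 12 libraries, among 6131 genes with a mean of at least 5 TPM. For Arntl these were Bace1 (0.99), Klhl30 (0.97) and Rabgef1 (0.97), and the lowest were Tcap (-0.93), which encodes the titin cap of the sarcomere, Gmpr (-0.85) and Drap1 (-0.85). Clock was led by Bace1 (0.97), Murc (0.97) and Tmem106b (0.97), and its lowest were again Tcap (-0.86), then Gm9895 (-0.86) and Ccdc85b (-0.83). Bace1, the beta-secretase, had means of 11.1, 10.9, 21.1 and 20.0 TPM in WT ZT0, TG ZT0, WT ZT12 and TG ZT12, the same order of times as Arntl. Bhlhe40 was led by Sema3c (0.93), Lhfp (0.90) and Cd34 (0.89), with Usp2 (-0.78), Slc25a25 (-0.75) and Sdhaf1 (-0.74) lowest. Bhlhe41 was led by Tecr (0.92), Asb5 (0.91) and Gdap1 (0.90), with Ubxn6 (-0.90), Art5 (-0.87) and Ifngr2 (-0.83) lowest. With Spearman's rho in place of r, 71 of the first 100 genes were shared for Arntl, 69 for Clock, 45 for Bhlhe40 and 59 for Bhlhe41. Of the 3 highest named for each, 0 were shared for Arntl, 0 for Clock, 0 for Bhlhe40 and 1 for Bhlhe41, and of the 3 lowest 1, 0, 0 and 1, so the names themselves turn on the measure.

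Of 18 further core clock genes, 13 were tested. Between the times over both genotypes, 1 rose at ZT12 and 4 fell by limma, where 1.02% of all genes passed. The list was chosen with earlier results of these data known, so its count is a description. Nr1d1, which encodes the Arntl repressor REV-ERB alpha, rose by 2.42 on the log2(TPM + 1) scale, from 12.9 to 73.5 TPM in WT and from 10.8 to 63.4 TPM in TG. Per2 fell by 1.38, Per1 by 0.78 (adjusted p = 0.0132), Per3 by 0.76 (adjusted p = 0.00686) and Hlf, a PAR bZIP factor, by 0.75. Estimates lay below 0 for 12 of the 13, with a median of -0.35 against -0.03 over all genes, whereas Arntl, Clock, Bhlhe40 and Bhlhe41 all lay above 0. Arntl and its repressor Nr1d1 thus both had higher means in the ZT12 libraries. Npas2, the CLOCK paralogue, and Arntl2, the BMAL1 paralogue, were not among the listed genes and were not analysed here.

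**Figure D5:**
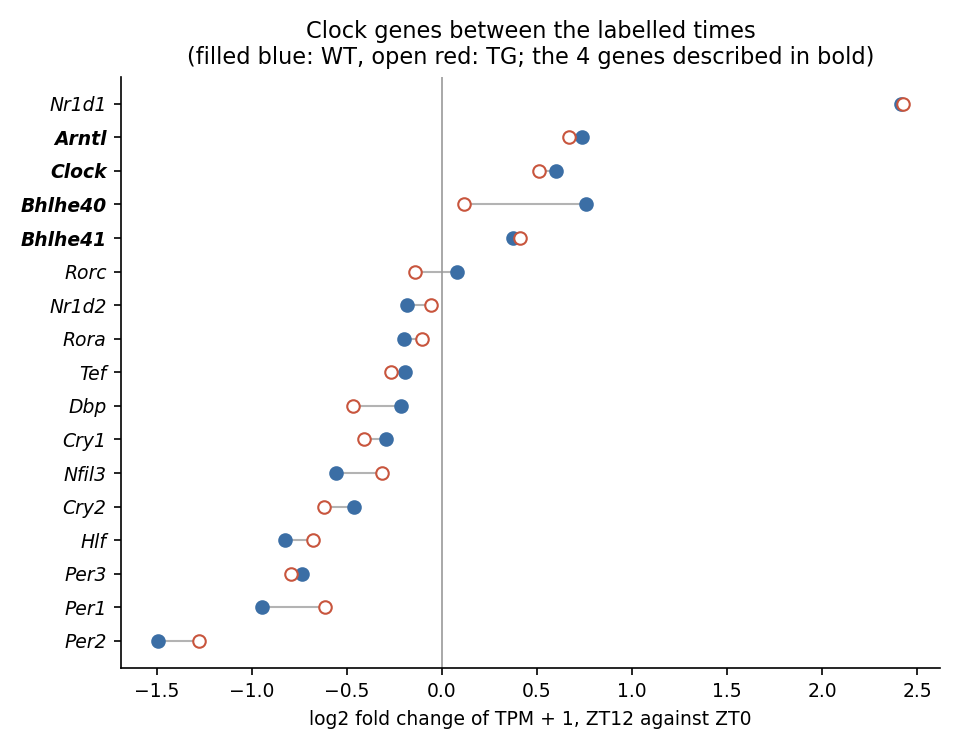
Difference between ZT12 and ZT0 (x axis, log2 fold change of TPM + 1) for the 4 genes and the 13 other clock genes tested (y axis), in WT (filled blue) and TG (open red). Nr1d1 is farthest to the right and Per2 farthest to the left in both genotypes, and Bhlhe40 shows the widest gap between genotypes.

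Other lists around the 4 proteins were compared between the times over both genotypes, where 1.02% of all genes passed. Among 18 cofactors of CLOCK and BMAL1, all tested, 0 passed between the times, with a median of -0.08. Of 17 tested regulators of clock protein stability, 1 passed: Usp2, a deubiquitinase, fell by 0.57 (adjusted p = 0.0029 by limma). None of 7 tested bHLH-PAS relatives and none of 4 tested relatives of the Bhlhe40 family (bHLH-Orange) passed in either direction. Of 16 tested muscle genes described as outputs of BMAL1 and CLOCK, 1 rose and 6 fell. That list includes genes already seen to differ in these libraries, so its count was partly fixed by the choice and supports nothing. Pdk4, which holds back glucose oxidation, rose by 1.85. Arrdc3 fell by 1.64, the kinase gene Mylk4 by 1.21 and Myod1, the myogenic factor, by 1.19. In the genotype comparisons, 0 genes of these lists passed.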

How the data were processed

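Poly(A) RNA of 12 gastrocnemius libraries was sequenced by the authors. Reads were handled with STAR, bcl2fastq, DESeq2 and HOMER 4.11.1 on build mm10, per the submitters' processing notes, which give no roles. The deposited TPM table, made by the authors, holds 10475 genes, each at 1 TPM or more in WT ZT0 replicate 1. The deposited tables of each time, made with HOMER per the file headers, hold log2 values, log2 fold changes, p-values and adjusted p-values. The files used here hold no counts. TPM times transcript length came out whole, within 0.1 read, for 99.81% of values or more, and gave depth.

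Limma 3.58.1 (R 4.3.3) with a trend was fitted to log2(TPM + 1) of 10415 genes over 4 group means, or to genotype plus time, with Benjamini-Hochberg adjustment over all genes. Tables and exact tests used Python 3.11.15 and scipy 1.17.1. The procedure was checked on simulated data. The genes and lists were chosen with earlier results of these data known. Named genes are the 4, the 3 most and least like each by correlation, and called list members. Alternatives were other scalings, filters, pseudocounts, covariates, limma-voom on recovered reads, and libraries left out. The replicate numbers were not taken as pairs.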

Additional observations from a re-analysis of the deposited data

How the results depend on the processing

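Of 353 values under alternatives that changed a setting, 299 kept their direction and side of the threshold, 25 newly passed it and 29 turned direction. Of 336 values with 1 library left out, these numbers were 309, 6 and 21. None of the 4 genes passed as reported, so none could lose a call. No cause of a change was tested. Clock was not tested under the 5 TPM filter. The voom fit with median-of-ratios scaling was chosen after seeing the data.

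Newly passing, time over both genotypes was 0.73 (median of ratios), 0.73 (upper quartile), 0.76 (quantile), 0.83 (voom), 0.86 (voom rescaled), 0.90 (WT ZT0 replicate 2 and TG ZT12 replicate 1 both left out) and 0.70 (replicate block) for Arntl. For Clock it was 0.58, 0.58, 0.62, 0.72, 0.75 and 0.79 under the first 6 of these. With both libraries left out it was 0.52 for Bhlhe40 and 0.46 for Bhlhe41. In WT, Bhlhe40 passed at 0.81, 0.82, 0.78, 0.80, 0.83 and 0.79 under the same 6, and Arntl at 0.78 (median of ratios), 0.84 (quantile) and 0.91 (voom rescaled). In TG, Arntl passed at 0.95 with both libraries left out. The replicate block changed no other call.

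Turned directions were all below the threshold. Arntl over both times turned to 0.053 (median of ratios), 0.048 (upper quartile), 0.089 (quantile), 0.061 (voom rescaled), 0.086 (depth covariate) and 0.16 (both left out), and at ZT12 to 0.0083 (median of ratios), 0.012 (quantile), 0.020 (voom rescaled), 0.0019 (deposited log2 table), 0.20 (depth covariate) and 0.21 (both left out). Clock turned at ZT0 to 0.025 (quantile), 0.00085 (deposited log2 table) and 0.023 (both left out), at ZT12 to 0.16 (depth covariate) and 0.10 (both left out), and over both times to 0.059 (both left out). With the depth covariate, Clock in WT turned to -0.18, Bhlhe40 to -0.24 in TG, -0.25 over both genotypes and 0.040 for genotype. The interaction turned for Arntl to 0.17 and 0.10 and for Clock to 0.25 and 0.073 (depth covariate, both left out), and for Bhlhe41 to -0.026 (depth covariate), -0.033 (quantile) and -0.0090 (upper quartile).

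With 1 library left out, time over both genotypes ran from 0.59 to 0.83 for Arntl, 0.45 to 0.70 for Clock and 0.36 to 0.53 for Bhlhe40. Bhlhe40 ran from 0.67 to 0.87 in WT and from -0.022 to 0.24 in TG. Between genotypes, Arntl ran from -0.11 to 0.11 at ZT0, -0.34 to 0.21 at ZT12 and -0.15 to 0.10 over both times, and Clock from -0.24 to 0.023 at ZT0 and -0.46 to 0.10 at ZT12. The interaction ran from -0.34 to 0.21 for Arntl, -0.33 to 0.22 for Clock and -0.12 to 0.21 for Bhlhe41.

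Genes called by limma between times in WT, 12 in all, were 55 (median of ratios), 47 (upper quartile), 52 (quantile), 56 (voom), 73 (voom rescaled), 73 (both left out), 0 (depth covariate) and 4 to 35 with 1 library left out, over 1.5 times lower without WT ZT0 replicate 1 or 3 or any WT ZT12 library and higher without TG ZT12 replicate 1 or 2. The share of higher calls there moved from 16.7% to 52.7% (median of ratios), 51.1% (upper quartile), 48.1% (quantile) and 41.1% (voom). In TG, 16 became 31, 29, 33, 28, 29, 71 and 2 in the same order, 3 with the groups alone and 6 to 21 with 1 library left out, over 1.5 times lower without any TG ZT0 library or TG ZT12 replicate 3. Over both genotypes, 106 became 233, 220, 217, 215, 247, 464 and 2, and 70 (without WT ZT12 replicate 2) to 160 (without TG ZT12 replicate 1). For genotype, 0 became 1 at ZT0 with the groups alone and 0 to 1 with 1 library left out (1 without TG ZT12 replicate 3), and at ZT12 it became 2 with both left out and 17 on the deposited log2 table.

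The replicate numbers did not pair the libraries: 18 pairs with the same number correlated at -0.35 to 0.29, and only 5 of 12 resembled a library of their own number most. Depth limits Arntl most, with 131 reads in its lowest library.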

Other observations

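Further lists were compared between the times by limma over both genotypes, where 1.02% of all genes passed. The lists were chosen with earlier results of these data known, so their counts are descriptions. Of 15 tested glucocorticoid response genes, 2 rose and 4 fell. Pdk4 rose by 1.85 and Fbxo32, a muscle ubiquitin ligase, by 0.97 on the log2(TPM + 1) scale, whereas Glul, glutamine synthetase, fell by 1.57, Fkbp5 by 0.92, Tsc22d3 by 0.86 and Per1 by 0.78. Of 15 tested immediate early genes, Fos alone passed and rose by 1.46 (adjusted p = 0.0219). Of 14 tested hypoxia response genes, a group to which Bhlhe40 is known to belong, Pfkfb3 rose by 1.87 and Pfkfb4 fell by 0.55. In TG against WT at ZT12, all 14 of these hypoxia estimates lay below 0, with a median of -0.11 against -0.07 over all genes and 0 passing.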
